A study of Mus musculus with 12 samples.

Results

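The question addressed here is whether lenvatinib and H3B-6527 given together changed the transcriptome of Hep3B tumors by more or by less than the product of what each drug did alone. It was put to each gene as an interaction contrast on the log2 scale: combination minus H3B-6527 minus lenvatinib plus vehicle. A contrast of 0 means that the fold changes of the drugs multiply, a positive one that the combination tumors held more of the transcript than that product, and a negative one that they held less. The contrast draws on all 12 of the 12 libraries, and 15836 of the 36292 gene symbols in the deposited table had enough counts to be tested. Nothing measured entered the choice of samples.

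Hep3B is a human hepatocellular carcinoma line, grown here under the skin of BALB/c nude mice of about 8 weeks, which lack T cells but keep their other blood and stromal cells. Dosing began at tumors of about 500 mm3, and tumors were taken 8 h after the 4th dose. The groups were H3B-6527 at 300 mg/kg together with lenvatinib at 10 mg/kg, H3B-6527 alone at 300 mg/kg, lenvatinib alone at 10 mg/kg, and vehicle, with 3 tumors each. All groups share the cell line and the host. RNA came from 50 to 100 mg of tumor, and values are given per human symbol; whether mouse reads were removed is not given in the sources used here. In such bulk samples fewer cells of a type and less RNA per cell cannot be told apart.

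H3B-6527 is a covalent inhibitor of FGFR4, the receptor through which FGF19, with the co-receptor KLB, drives the MAPK cascade and shuts down bile acid synthesis in hepatocytes. Lenvatinib inhibits the VEGF receptors of endothelial cells and also FGF receptors, PDGFRA, KIT and RET. Active MAPK signalling induces its own brakes, the Sprouty, SPRED and DUSP genes, together with ETV transcription factors and MYC, and the levels of these transcripts are widely read as the output of the pathway.

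Library totals were 23.8 to 40.9 M estimated counts, and levels are given as counts per 1 M (CPM). The shallowest library was H3B-6527 replicate 3 and the deepest combination replicate 3. At these depths 3 counts make 0.0733 CPM in the deepest library and 0.126 CPM in the shallowest, limits that cover counting error only. Liver cancer transcripts dominated, with ALB at 34100 to 91400 CPM. Over all 12 libraries CDH5 of endothelial cells totalled 3 counts, DCN and LUM of fibroblasts 11 and 18, and KRT14 of skin 4. Other symbols looked up as host markers held more, with COL1A1 for fibroblasts at 334 counts, PTPRC for leukocytes at 275 and CKM for muscle at 449. RGS5 and MYH11, looked up for pericytes and smooth muscle, totalled 201 and 2437 counts, and CD68, looked up for leukocytes, 53006. CD68 stood at 82.1 to 195 CPM, against 0.342 to 1.19 CPM for PTPRC. Whether the CD68 reads came from tumor or host cells was not tested. The tumors did not vary equally within the groups. The median SD over genes was 0.14 log2 units among combination tumors, 0.228 among H3B-6527 tumors, 0.138 among lenvatinib tumors and 0.117 among vehicle tumors.

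No gene departed from the product of the drug effects in the quasi-likelihood test. At an adjusted p under 0.05 there were 0 higher and 0 lower genes (0% of those tested in each direction), and the smallest adjusted p was 0.61. At an unadjusted p under 0.05 there were 409 higher genes (2.58%) and 445 lower genes (2.81%), which together make 854 (5.39%). That number was 557 without lenvatinib replicate 1 and 1568 without H3B-6527 replicate 3, with no gene past adjustment in either case. limma-voom also called 0 genes, with 888 at an unadjusted p under 0.05, whereas DESeq2 called 13 higher and 5 lower, with 817 at that level. The contrast lay above 0 in 46.3% of the genes and its median was -0.02.

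**Figure D1:**
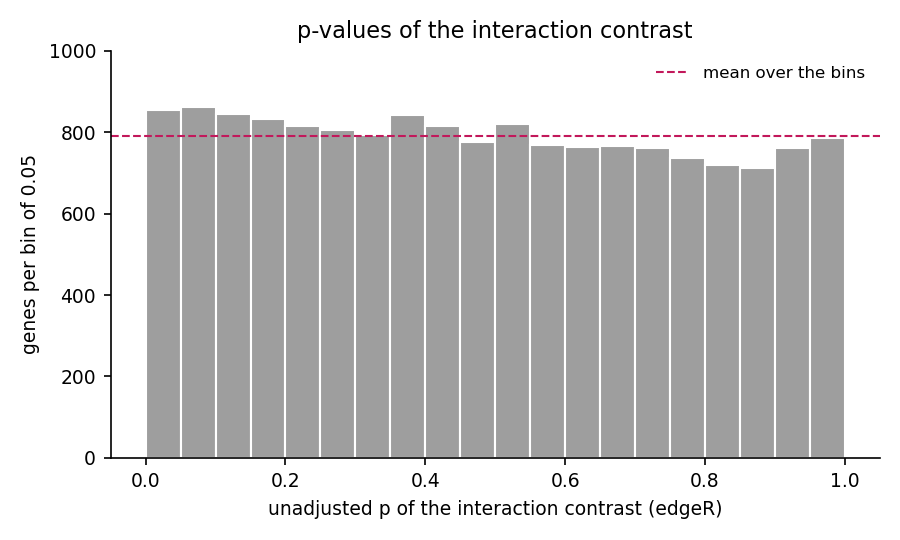
Unadjusted p-values of the interaction contrast for 15836 genes, counted in bins of 0.05 (bars), with the mean over the bins as a dashed line. The bins hold 712 to 862 genes, and the lowest bin, with 854, stands little above the rest.

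How precisely the contrast was estimated differs with expression. The intervals below hold for each gene taken singly and are not adjusted for the number of genes. They do not give the size of departure that the adjusted test could have called. Over all tested genes the median standard error of the contrast was 0.21 log2 units, and the median 95% interval reached 0.454 to either side. The interval lay wholly within 2-fold in either direction for 11160 genes (70.5%), and within 1.5-fold for 7040 (44.5%). Among the 12187 genes with a mean log2 CPM of 1 or more these shares were 88.5% and 57.7%. For the remaining genes a departure past 2-fold lay within the interval.

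Split by drug, the contrast compares the effect of one agent with and without the other, and the 2 effects then rest on different tumors. H3B-6527 changed 6329 genes (40%) when set on top of lenvatinib, 3020 higher and 3309 lower, and 7829 genes (49.4%) when given alone, 3987 higher and 3842 lower. With no correction for composition, only for library size, the median log2 fold change over all genes was -0.106 with lenvatinib and -0.114 without it. The balance was then 2293 higher and 4348 lower genes with lenvatinib, and 3022 higher and 4960 lower genes alone. With TMM scaling, 5590 were called in both and all of them in the same direction, which is 88.3% of the first set and 71.4% of the second. Across the 12187 better expressed genes the fold changes had a Pearson's r of 0.951 and a Spearman's rho of 0.939, a description over genes, which are not independent replicates. Their SD was 0.656 log2 units with lenvatinib present and 0.807 without it.

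Lenvatinib changed few genes past the adjusted test in either setting. On top of H3B-6527 it raised 2 genes (0.0126%), and without H3B-6527 it changed 0 (0%), with 1492 (9.42%) and 1698 genes (10.7%) at an unadjusted p under 0.05. AMDHD1, an enzyme of histidine breakdown, was higher in the combination than in H3B-6527 tumors by 0.95 ± 0.12 log2 units (SE; adjusted p = 0.0127). JAML, an adhesion molecule of the junctional family, was higher by 0.88 ± 0.10 (adjusted p = 0.0107). Hypoxia genes stood apart in many cases without being called. All combination tumors stood above all H3B-6527 tumors for 21 of 45 (5.95% of all genes), and all lenvatinib tumors above all vehicle tumors for 18 (11.8%), with median lenvatinib effects of 0.40 and 0.50. The fold changes of lenvatinib in the 2 settings had r = 0.296 and rho = 0.307 across the same genes, with SDs of 0.23 and 0.229. The counts for lenvatinib depended on the method: DESeq2 called 93 genes on top of H3B-6527 and 243 for lenvatinib alone. Leaving out 1 tumor moved them as well, to 16 on top of H3B-6527 without H3B-6527 replicate 3 and to 0 without combination replicate 3, and for lenvatinib alone to 45 without H3B-6527 replicate 1, a tumor of neither group compared.

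**Figure D2:**
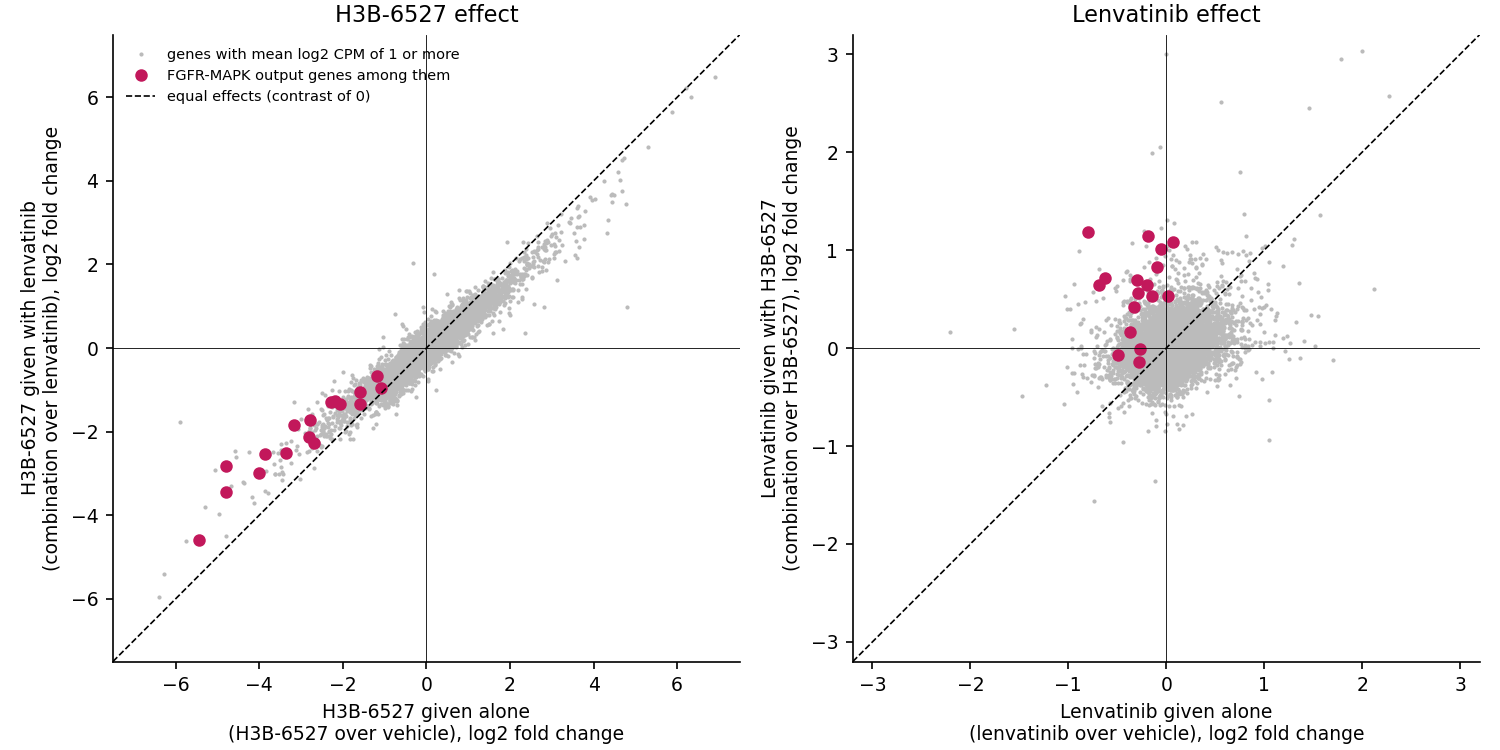
Log2 fold change of each drug given with the other drug plotted against its fold change given alone, 1 point a gene, with the line of equality on which the interaction contrast is 0. H3B-6527 effects lie close to the line (r = 0.951), while lenvatinib effects are small and scattered around 0 (r = 0.296).

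The genes read as output of FGFR and MAPK signalling lay furthest from 0 as a list. None of the 20 tested members passed the adjusted test. At an unadjusted p under 0.05 there were 11 higher and 0 lower, against 2.58% and 2.81% of all genes. All 20 had a contrast above 0, against 46.3% of all genes, and their median contrast was 0.84 log2 units, against -0.02. The members respond to shared signals and are not independent of each other. This list and the others were written with earlier results of these data known. Their counts and medians are therefore a description and not a test. Their median ran from 0.66 without combination replicate 3 to 1.13 without H3B-6527 replicate 3.

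Both settings of H3B-6527 lowered these genes. On top of lenvatinib 18 of 20 fell (20.9% of all genes fell) with a median of -1.62 log2 units, and 18 of 20 fell with H3B-6527 alone (24.3% of all genes) with a median of -2.73. The median effect of lenvatinib over the list was 0.60 on top of H3B-6527 and -0.29 when given alone. All 3 combination tumors stood above all 3 H3B-6527 tumors for 4 members, MYC, ETV5, IER3 and DUSP4 (5.95% of all genes did so). All 3 lenvatinib tumors stood below all 3 vehicle tumors for 8 members (10.9% of all genes), among them SPRY2, SPRY4 and EPHA2.

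MYC, the growth-promoting transcription factor, had 11.7, 14.3 and 15.3 CPM in combination tumors, 5.27, 7.13 and 8.38 CPM in H3B-6527 tumors, 36.5, 53.2 and 46.5 CPM in lenvatinib tumors and 48.3, 46.2 and 47.1 CPM in vehicle tumors. The combination and H3B-6527 tumors did not overlap, and lenvatinib and vehicle tumors did. The product of the drug effects corresponds to 6.47 CPM in the combination, where the geometric mean was 13.7 CPM. The contrast was 1.06 ± 0.23 (SE; 95% interval 0.56 to 1.57; adjusted p = 0.686). It stayed between 0.90 and 1.22 with any 1 tumor left out, and DESeq2 gave it an adjusted p of 0.0209.

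ETV5, an ETS factor induced by FGF signalling, had 4.43, 7.15 and 11 CPM in combination tumors, 3.42, 3.14 and 3.81 CPM in H3B-6527 tumors, 31.8, 54.3 and 46.7 CPM in lenvatinib tumors and 49.3, 49.4 and 52.6 CPM in vehicle tumors. Its combination tumors spanned more than its H3B-6527 tumors and lay above all of them. The contrast was 1.33 ± 0.38 (interval 0.49 to 2.17; adjusted p = 0.768).

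SPRY2, a Sprouty brake on receptor signalling, had 13.2, 18.1 and 22.4 CPM in combination tumors, 8.62, 9.95 and 15 CPM in H3B-6527 tumors, 34.5, 49.8 and 48 CPM in lenvatinib tumors and 52.8, 55.6 and 53.7 CPM in vehicle tumors. Here the combination and H3B-6527 tumors overlapped, while every lenvatinib tumor was below every vehicle tumor. The contrast was 0.99 ± 0.31 (interval 0.32 to 1.66; adjusted p = 0.768).

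DUSP6, the phosphatase that switches off ERK, had 6.04, 9.71 and 15.8 CPM in combination tumors, 2.7, 5.07 and 7.62 CPM in H3B-6527 tumors, 62, 97.9 and 92.9 CPM in lenvatinib tumors and 77.7, 92.9 and 71.1 CPM in vehicle tumors. Its contrast of 1.02 ± 0.50 had an interval that included 0 (-0.08 to 2.11). Without combination replicate 3 it was 0.59. EGR1, an immediate early transcription factor, is not on the FGFR-MAPK list. It had 3.32, 12.9 and 31.4 CPM in combination tumors, against 2.08, 2.63 and 7.5 CPM in H3B-6527 tumors, 49, 122 and 95.1 CPM in lenvatinib tumors and 91.8, 103 and 83.7 CPM in vehicle tumors. Its contrast was 2.11 ± 0.96 (interval -0.01 to 4.23), and 1.12 without combination replicate 3.

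Further members of the FGFR-MAPK list with an interval above 0 included EPHA2, an ephrin receptor (1.33 ± 0.43), SPRED2, an inhibitor of RAS signalling (0.91 ± 0.34), and CCND1, the cyclin of G1 entry (0.74 ± 0.30). SPRY4 had 0.221, 0.345 and 0.61 CPM in combination tumors and 0.0772, 0.108 and 0.419 CPM in H3B-6527 tumors, a few counts a library, against 1.18, 3.95 and 3.54 CPM in lenvatinib tumors and 4.97, 5.02 and 5.04 CPM in vehicle tumors. Its contrast of 1.98 carried an SE of 0.82. In all, 11 of the 20 members had an interval above 0. Those with intervals on both sides of 0 included ETV4, IL17RD, HMGA2, SPHK1 and DUSP5.

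**Figure D3:**
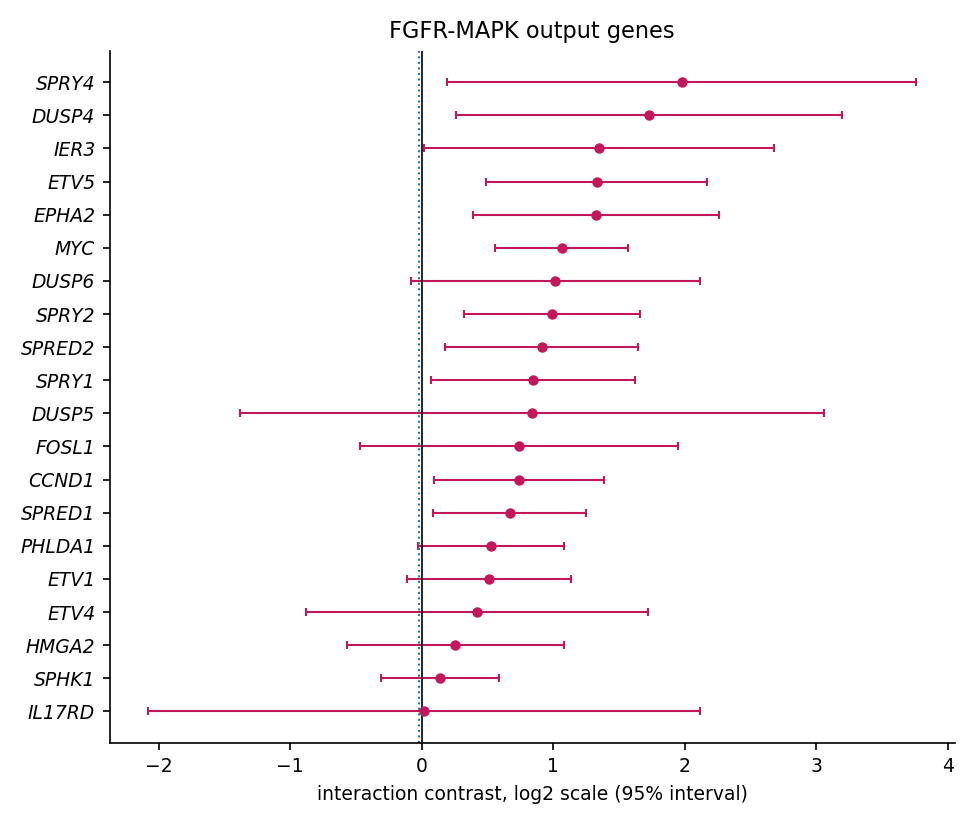
Interaction contrast (points, log2 scale) with its 95% interval (bars) for the 20 FGFR-MAPK output genes, with the median of all tested genes as a dotted line. All 20 points lie above 0, from 0.02 for IL17RD to 1.98 for SPRY4, and 11 of the intervals exclude 0, none of which passes adjustment over all genes.

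Of 23 tested genes on a list for the FGF and VEGF receptor axis, none passed the adjusted test. A contrast above 0 was found for 17 (46.3% of all genes), and the median was 0.15. At an unadjusted p under 0.05 there were 2 higher (2.58% of all genes) and 1 lower (2.81%). The higher ones were FGFR2, an FGF receptor (0.80 ± 0.23), and PDGFRA, a PDGF receptor (0.33 ± 0.15), and the lower one ANGPTL4, a lipase inhibitor (-0.71 ± 0.28). Over the list the contrast ran from that value to that of FGFR2, and the median was 0.037 without H3B-6527 replicate 1.

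FGFR4 had 125, 132 and 135 CPM in combination tumors, 103, 132 and 135 CPM in H3B-6527 tumors, 146, 156 and 143 CPM in lenvatinib tumors and 158, 137 and 154 CPM in vehicle tumors, with a contrast of 0.10 ± 0.14 (interval -0.21 to 0.41). FGFR4 fell with H3B-6527 alone, by 0.28 on the log2 scale (adjusted p = 0.035), and was -0.18 on top of lenvatinib (adjusted p = 0.17). With H3B-6527 replicate 1 left out the contrast changed sign (-0.017). FGF19 stayed at 0.695 to 3.66 CPM in every tumor, and its contrast of 0.38 ± 0.54 had a wide interval (-0.79 to 1.56).

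KLB rose with H3B-6527 both on top of lenvatinib (1.77 log2 units, adjusted p = 8.1e-05) and alone (2.37, adjusted p = 4.5e-06). It had 210, 215 and 171 CPM in combination tumors, 329, 215 and 163 CPM in H3B-6527 tumors, 62, 55.7 and 56.9 CPM in lenvatinib tumors and 44.5, 44.3 and 48.2 CPM in vehicle tumors. H3B-6527 replicate 1 was the highest, at 329 CPM. The contrast was -0.60 ± 0.28 (adjusted p = 0.917) and was -0.28 without that tumor.

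VEGFA, the angiogenic ligand whose receptors lenvatinib inhibits, lay at the product of the drug effects. It had 150, 120 and 117 CPM in combination tumors, 72.5, 80.3 and 79.2 CPM in H3B-6527 tumors, 128, 160 and 182 CPM in lenvatinib tumors and 87.6, 107 and 84.2 CPM in vehicle tumors. Every tumor given lenvatinib lay above every tumor of the matching group without it. The estimated effect of lenvatinib was 0.73 log2 units on top of H3B-6527 and 0.76 alone, neither of which passed adjustment. The contrast was -0.02 ± 0.19, and its interval of -0.44 to 0.39 bounds any departure in this gene.

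Bile acid genes showed no departure past the test, with wide limits. CYP7A1, the rate-limiting enzyme of the classical pathway, had 9.68, 9.88 and 4.29 CPM in combination tumors and 15.4, 12.7 and 4.65 CPM in H3B-6527 tumors, and at most 0.11 CPM in lenvatinib tumors and 0.127 CPM in vehicle tumors, which is the level of a few counts. Its contrast of -0.42 ± 1.32 had an interval of -3.31 to 2.48, and was -0.093 without H3B-6527 replicate 1. AKR1D1, the reductase of the bile acid nucleus, had 114, 97.7 and 65.9 CPM in combination tumors, 151, 77.4 and 44.9 CPM in H3B-6527 tumors, 8.88, 7.35 and 4.41 CPM in lenvatinib tumors and 4.47, 2.68 and 3.49 CPM in vehicle tumors. Its contrast was -0.94 ± 0.60 (interval -2.25 to 0.37), and -0.36 without H3B-6527 replicate 1. Of the 16 bile acid synthesis genes tested, 3 had a contrast above 0 (46.3% of all genes) and none reached an unadjusted p of 0.05 (5.39%). The median of these 16 was -0.17, which became 0.004 without H3B-6527 replicate 1.

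Since no gene passed the test, the genes with the smallest p-values were described. They were the 15 on each side with a mean log2 CPM of 1 or more whose contrast had the same sign in all 81 combinations of 1 tumor from each group, a demand met by 192 genes above 0 (1.21%) and 216 below 0 (1.36%). These values were chosen by their p and support nothing by themselves. For 10 of the 30 the lenvatinib and vehicle tumors stood apart and the combination and H3B-6527 tumors overlapped (19.4% of all genes), for 9 it was the other way round (9.72%), and for 11 the groups stood apart in both settings (3.38%).

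Among the genes with a positive contrast, 14 of the 15 fell with H3B-6527 both with lenvatinib present and without it, by less when it was present. SLCO1B3, an uptake transporter of the hepatocyte membrane, was the exception. It had 89.9, 95.4 and 85.8 CPM in combination tumors, 58.2, 44.8 and 41.9 CPM in H3B-6527 tumors, 88.4, 116 and 101 CPM in lenvatinib tumors and 89.5, 90 and 105 CPM in vehicle tumors. Only the H3B-6527 tumors were low. H3B-6527 lowered it alone, by a log2 fold change of -0.97, whereas on top of lenvatinib the difference was -0.17 (adjusted p = 0.3). The contrast was 0.80 ± 0.18 (interval 0.41 to 1.19; adjusted p = 0.732), and the product of the drug effects corresponds to 51.1 CPM where 90.3 CPM was observed.

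NAT8, an acetyltransferase of glutathione conjugate breakdown, had 3.45, 4.14 and 3.68 CPM in combination tumors, 1.31, 1.6 and 1.97 CPM in H3B-6527 tumors, 9.45, 8.56 and 6.69 CPM in lenvatinib tumors and 8.01, 9.53 and 8.14 CPM in vehicle tumors. Its contrast was 1.28 ± 0.24 (adjusted p = 0.61). AMDHD1 had 23.9, 27 and 32.2 CPM in combination tumors, 12.7, 14.4 and 16 CPM in H3B-6527 tumors, 49.3, 52.5 and 51 CPM in lenvatinib tumors and 40.3, 46 and 42.8 CPM in vehicle tumors. Its lenvatinib tumors stood above their counterparts with and without H3B-6527, and its contrast was 0.71 ± 0.16 (adjusted p = 0.732). JAML showed the same order, with 23.3, 20.3 and 21 CPM in combination tumors, 13.1, 10.6 and 11.3 CPM in H3B-6527 tumors, 30.1, 30.3 and 29 CPM in lenvatinib tumors and 25.1, 27.1 and 23.9 CPM in vehicle tumors, and a contrast of 0.65 ± 0.14.

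In a further set lenvatinib tumors were below vehicle tumors, so that the sum of both drug effects pointed lower than the combination was. NPAS2, a clock transcription factor, had 23.6, 22.9 and 25 CPM in combination tumors, 18.4, 19.2 and 20.3 CPM in H3B-6527 tumors, 40.7, 57.6 and 48.5 CPM in lenvatinib tumors and 78.2, 66.7 and 77 CPM in vehicle tumors. All groups stood apart, and lenvatinib tumors were the higher ones with H3B-6527 and the lower ones without it. The contrast was 0.90 ± 0.16 (interval 0.55 to 1.25; adjusted p = 0.61). HLF, a PAR-domain transcription factor of the clock's output, had 1.9, 1.35 and 1.75 CPM in combination tumors, 1.54, 0.949 and 1.3 CPM in H3B-6527 tumors, 2.68, 2.92 and 3.05 CPM in lenvatinib tumors and 5.72, 5.55 and 6.2 CPM in vehicle tumors. Its combination and H3B-6527 tumors overlapped, and the contrast was 1.42 ± 0.27 (adjusted p = 0.61). RBPMS, an RNA-binding protein (0.68 ± 0.14), CASP4, an inflammatory caspase (0.60 ± 0.13), TNFSF4, the OX40 ligand (1.06 ± 0.25), and SHB, an SH2-domain adaptor (0.72 ± 0.18), had likewise a positive estimate for lenvatinib with H3B-6527 and a negative one without it.

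**Figure D4:**
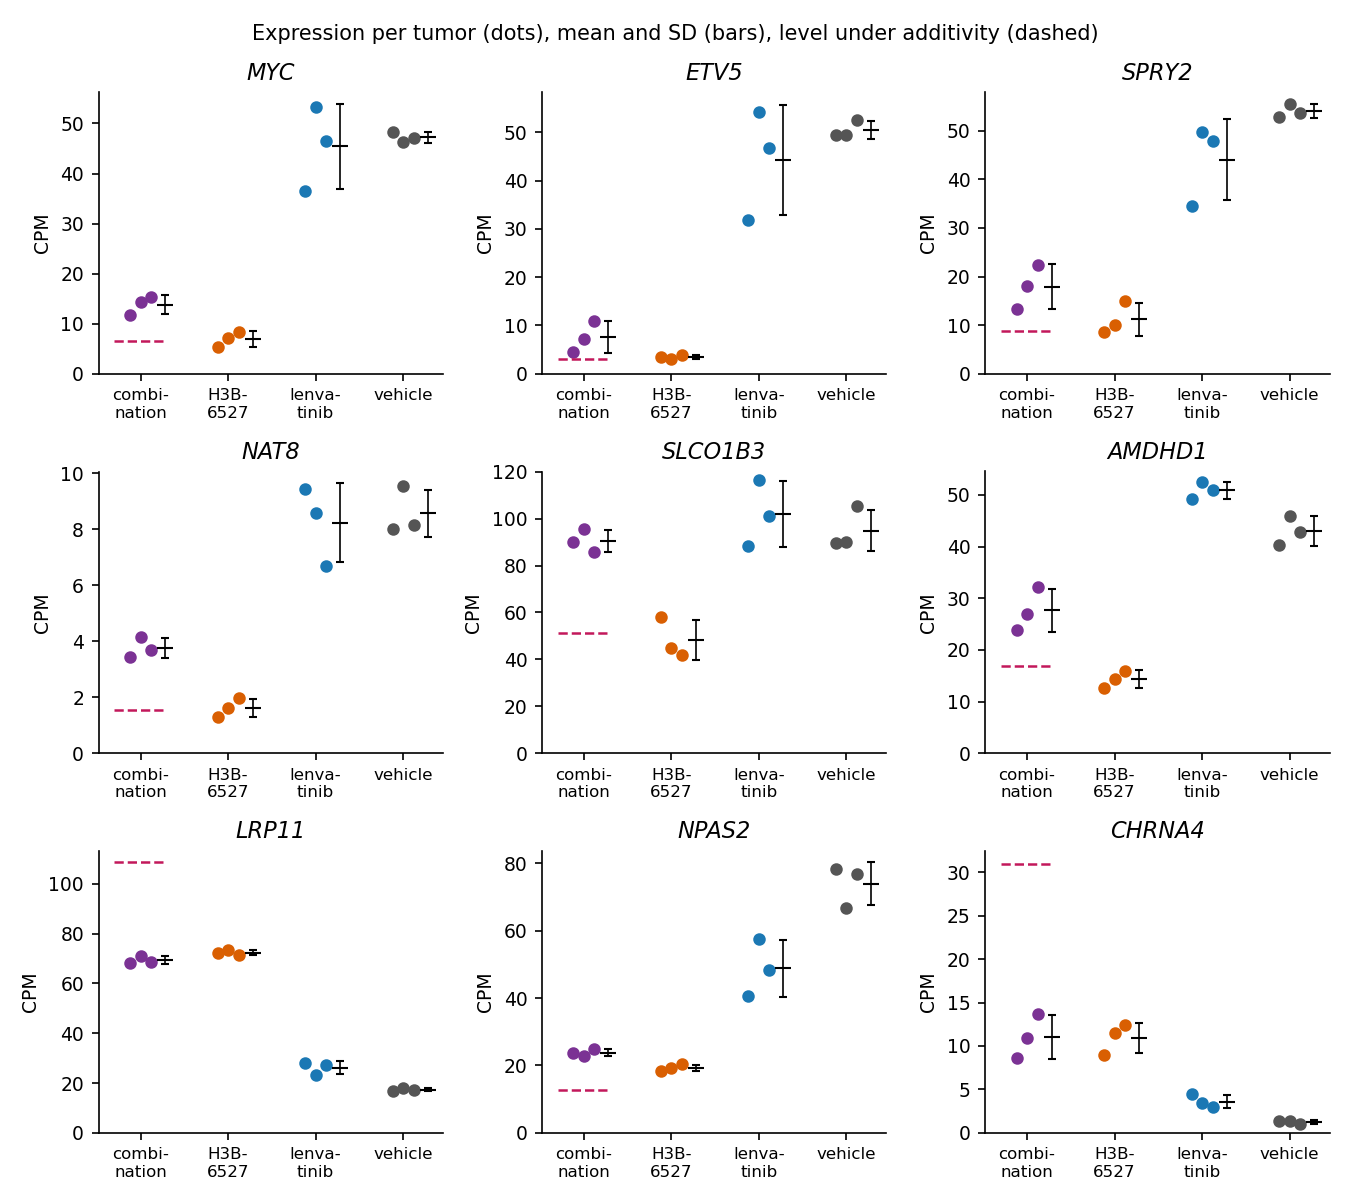
CPM in each tumor (dots) with the group mean and SD (bars) for 9 genes, and the combination level that the product of the drug effects gives (dashed). For MYC, SLCO1B3 and NAT8 the combination tumors stand above the dashed level, and for LRP11 and CHRNA4 below it, at about the level of the H3B-6527 tumors.

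Among the 15 genes with a negative contrast, all of which rose with H3B-6527 alone, 8 had lenvatinib tumors above vehicle tumors and overlapping combination and H3B-6527 tumors. LRP11, a membrane protein, had the smallest p of all named genes. It had 68.4, 71.2 and 68.6 CPM in combination tumors, 72.1, 73.4 and 71.6 CPM in H3B-6527 tumors, 28.1, 23.2 and 27.1 CPM in lenvatinib tumors and 16.9, 17.8 and 17.3 CPM in vehicle tumors. Lenvatinib tumors were higher than vehicle tumors, yet combination tumors were slightly below H3B-6527 tumors. The product corresponds to 109 CPM where 69.4 CPM was observed, a contrast of -0.65 ± 0.11 (interval -0.89 to -0.41; adjusted p = 0.61 here and 0.000634 in DESeq2).

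CHRNA4, a subunit of the nicotinic acetylcholine receptor, had 8.6, 10.9 and 13.6 CPM in combination tumors, 8.95, 11.5 and 12.4 CPM in H3B-6527 tumors, 4.41, 3.43 and 2.92 CPM in lenvatinib tumors and 1.37, 1.35 and 1.02 CPM in vehicle tumors. The groups with H3B-6527 overlapped and the groups without it did not, and the contrast was -1.50 ± 0.30 (adjusted p = 0.61). EML6, a microtubule-associated protein (-0.55 ± 0.12), EPB41L1, a protein of the membrane skeleton (-0.84 ± 0.21), TMEM150B (-0.64 ± 0.17), PKHD1L1 (-0.87 ± 0.23) and ACOT12, an acetyl-CoA thioesterase (-0.85 ± 0.23), showed the same arrangement.

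For ZBED8, ABHD18 and SYNJ1, a phosphoinositide phosphatase, combination tumors were below H3B-6527 tumors without overlap and lenvatinib tumors above vehicle tumors. SYNJ1 had 26.5, 26.5 and 27.2 CPM in combination tumors, 31.7, 32.6 and 34.6 CPM in H3B-6527 tumors, 24.4, 23.2 and 25.8 CPM in lenvatinib tumors and 22.3, 22.4 and 23 CPM in vehicle tumors. Its contrast was small but narrow, at -0.42 ± 0.10 (interval -0.64 to -0.19; adjusted p = 0.757). ZNF611 and BCORL1, a transcriptional corepressor, differed only in the pair with H3B-6527.

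Of the other gene lists, those for ribosome assembly lay on 1 side of 0. The contrast was above 0 in 27 of the 28 members (46.3% of all genes), and 7 members were higher (2.58%) and 0 lower (2.81%) at an unadjusted p under 0.05. The median was 0.25, with 0.17 without H3B-6527 replicate 1 and 0.33 without lenvatinib replicate 2. H3B-6527 lowered 26 members on top of lenvatinib (20.9% of all genes) and 27 alone (24.3%), with medians of -0.71 and -0.94. The median effect of lenvatinib was -0.08 on top of H3B-6527 and -0.31 alone, and all lenvatinib tumors stood below all vehicle tumors for 19 members (10.9% of all genes). DDX21, a helicase of ribosomal RNA synthesis, had 35.4, 31.2 and 34.9 CPM in combination tumors, 29.8, 33.4 and 40.5 CPM in H3B-6527 tumors, 71.7, 95.5 and 86.5 CPM in lenvatinib tumors and 136, 115 and 140 CPM in vehicle tumors. Lenvatinib tumors were below vehicle tumors, and the groups with H3B-6527 overlapped. Its contrast was 0.60 ± 0.18 (adjusted p = 0.768).

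Targets of YAP, the Hippo pathway coactivator, had a median of 0.19, which was 0.31 without H3B-6527 replicate 3. The contrast was above 0 in 15 of 18 (46.3% of all genes), with 3 higher (2.58%) and 0 lower (2.81%) at an unadjusted p under 0.05. CTGF, a matricellular protein, had 2.37, 4.52 and 2.69 CPM in combination tumors, 2.65, 1.84 and 2.47 CPM in H3B-6527 tumors, 6.22, 9.69 and 10.5 CPM in lenvatinib tumors and 16.4, 14.7 and 18.3 CPM in vehicle tumors, a contrast of 1.36 ± 0.35 (adjusted p = 0.757). For WNT targets the median was 0.07 (0.16 without vehicle replicate 2), with 13 of 20 above 0 (46.3% of all genes). At an unadjusted p under 0.05, 3 members were higher (2.58% of all genes) and 0 lower (2.81%). Of these 3, MYC and CCND1 stand also in the FGFR-MAPK list. The third was LGR5, a receptor of R-spondins (0.70 ± 0.28, and 0.42 without combination replicate 1). Cholesterol synthesis genes had a median of 0.14 (0.22 without lenvatinib replicate 2), with 20 of 25 above 0 (46.3% of all genes) and 2 higher (2.58%) and 0 lower (2.81%) at an unadjusted p under 0.05.

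Among 41 hepatocyte products the contrast was above 0 in 9 (46.3% of all genes) and the median was -0.26, with 0 higher (2.58%) and 2 lower (2.81%) at an unadjusted p under 0.05. All 3 lenvatinib tumors stood above all 3 vehicle tumors for 21 of them (11.8% of all genes). That median rested on the H3B-6527 tumors, being -0.53 without replicate 3 and -0.04 without replicate 1. Fatty acid oxidation and PPAR targets had a median of -0.21, with 6 of 25 above 0 (46.3% of all genes). At an unadjusted p under 0.05, 0 members were higher (2.58% of all genes) and 3 lower (2.81%). The list median was -0.35 without H3B-6527 replicate 3 and -0.09 without replicate 1. EHHADH, a peroxisomal enzyme, had -0.63 ± 0.25 with all tumors and -0.40 without replicate 1. ALB did not differ from the product beyond its interval, at -0.24 ± 0.24 (interval -0.75 to 0.28), with -0.39 without H3B-6527 replicate 3 and -0.11 without replicate 1. The hepatocyte transcription factors did not share that sign, with 13 of 22 above 0 (46.3% of all genes). Their median was 0.047 (-0.012 without H3B-6527 replicate 3). At an unadjusted p under 0.05, however, 3 were lower (2.81% of all genes) and 0 higher (2.58%). Of these 3, HNF4A, a master regulator of the hepatocyte, had 475, 467 and 480 CPM in combination tumors, 502, 486 and 418 CPM in H3B-6527 tumors, 382, 407 and 357 CPM in lenvatinib tumors and 319, 281 and 300 CPM in vehicle tumors, a contrast of -0.33 ± 0.13 (adjusted p = 0.863).

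Cell cycle lists had no direction that held. The median was -0.18 over 43 S phase genes and -0.19 over 40 genes of G2 and mitosis, with 4 and 5 members above 0 (46.3% of all genes). None had an unadjusted p under 0.05 (5.39% of all genes). Without H3B-6527 replicate 3 the medians were 0.12 and 0.16, and without H3B-6527 replicate 1 both were -0.38. MKI67, the proliferation antigen, had 230, 249 and 354 CPM in combination tumors, 226, 283 and 529 CPM in H3B-6527 tumors, 591, 510 and 503 CPM in lenvatinib tumors and 506, 587 and 557 CPM in vehicle tumors. H3B-6527 replicate 3 lay at the level of the tumors without H3B-6527. The contrast was -0.27 ± 0.37 (interval -1.08 to 0.53).

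Hypoxia genes were spread around 0, with a median of -0.02 and 21 of 45 above 0 (46.3% of all genes). At an unadjusted p under 0.05, 3 members were higher (2.58% of all genes) and 3 lower (2.81%). NDRG1, a stress-response gene, had 344, 338 and 258 CPM in combination tumors, 258, 191 and 167 CPM in H3B-6527 tumors, 130, 131 and 189 CPM in lenvatinib tumors and 20.8, 66.4 and 16.2 CPM in vehicle tumors, a contrast of -1.52 ± 0.61 (adjusted p = 0.905), which was -2.42 without vehicle replicate 2. HK2, the hexokinase of glycolysis, had a contrast of 0.87 ± 0.30. CA9, a carbonic anhydrase, could not be placed, with 1.17 ± 1.11 (interval -1.27 to 3.61).

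Genes with narrow intervals around 0 included MET, the HGF receptor (-0.03 ± 0.12, interval -0.30 to 0.23), and FASN, the fatty acid synthase (0.01 ± 0.19, interval -0.40 to 0.42). For these a departure of more than 1.5-fold lay outside the 95% interval. Markers of host cells were summed as well, since human symbols could collect mouse reads. The endothelial list held 8.74 to 10.6 CPM in combination tumors, 7.48 to 8.81 CPM in H3B-6527 tumors, 8.08 to 10 CPM in lenvatinib tumors and 7.83 to 8.31 CPM in vehicle tumors, with 16 of its 19 symbols under 1 CPM on average. The fibroblast list held 148 to 209 CPM in combination tumors, 144 to 210 CPM in H3B-6527 tumors, 332 to 383 CPM in lenvatinib tumors and 336 to 439 CPM in vehicle tumors. DCN and LUM were near 0, and 12 of its 15 symbols lay under 1 CPM on average. In the same group order the pericyte and smooth muscle list held 55.5 to 61.1, 49.5 to 62.6, 75.3 to 85.9 and 75.4 to 85.4 CPM. Of its 12 symbols 4 lay under 1 CPM on average. The leukocyte list held 162 to 198, 150 to 209, 179 to 186 and 197 to 215 CPM, with 13 of its 17 symbols under 1 CPM. CD68 alone averaged 158, 155, 101 and 93.2 CPM. The muscle and skin list held 397 to 464, 367 to 611, 344 to 357 and 343 to 356 CPM, with 10 of its 14 symbols under 1 CPM. These sums thus rest on few symbols and do not measure amounts of host cells. The part of host reads in any contrast was not tested.

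**Figure D5:**
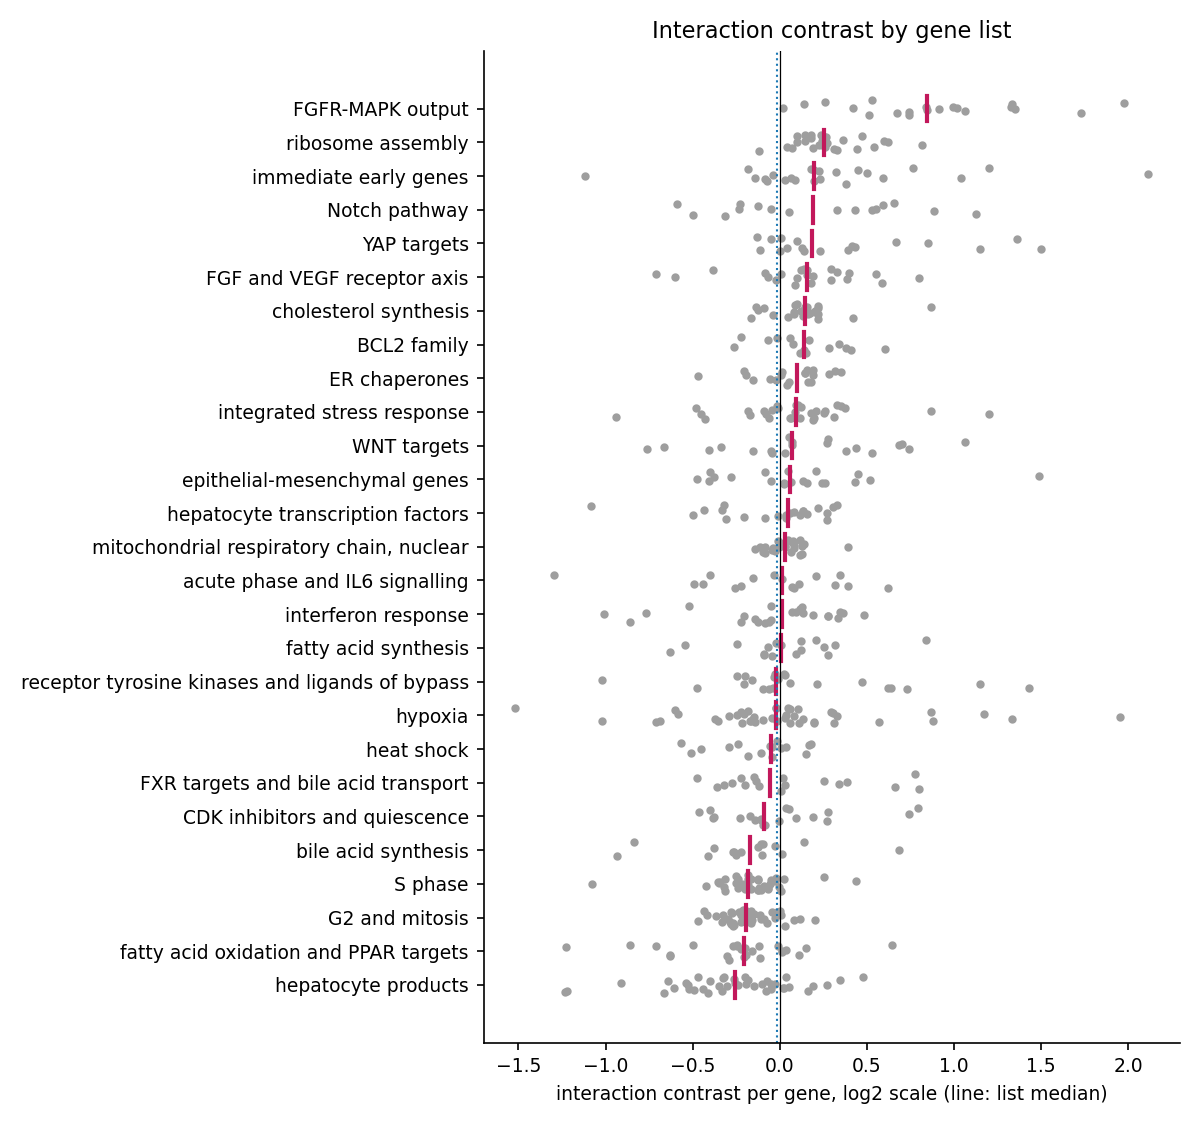
Interaction contrast of each tested member (dots, log2 scale) and list median (line) for 27 gene lists, with the median of all genes as a dotted line. FGFR-MAPK output genes have the highest median, 0.84, and hepatocyte products the lowest, -0.26, and most lists centre near 0.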

How the data were processed

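Tumor RNA was sequenced for 4 groups of 3 xenografts, over 4 lanes per the labels' protocols. The authors deposited estimated counts per human gene symbol, made with kallisto per the deposited table's name, a tool that shares ambiguous reads among transcripts. STAR and kallisto, with the builds GRCh37 and GRCm38, stand in the submitters' processing notes, which give no versions or order. Of the values, 40% are not whole, so counts were rounded. Genes were filtered with filterByExpr, scaled by TMM and tested as 1 design of 4 group means with edgeR 4.0.16 (glmQLFit, robust, glmQLFTest) in R 4.3.3. The Benjamini-Hochberg adjustment ran over all 15836 tested genes, with a threshold of 0.05. An SE is the absolute log2 fold change divided by the square root of F. CPM values use TMM-scaled library sizes of the tested genes. For the ALB range and the host-marker ranges TMM was computed on all symbols. The 3-count limits use library totals without TMM. limma 3.58.1 and DESeq2 1.42.0 were alternatives, and DESeq2 left 2764 adjusted p-values missing. The script was also run on counts simulated from the means and spread of this fit, and no result here rests on that run.

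Genes, lists and members were chosen with earlier results of these data known. The rule for naming asked for an adjusted p under 0.05. With none, it fell back to the 15 smallest p-values a side. It leaves out clone names, pseudogenes and near-identical copies. 40 genes were fixed by name, and up to 4 members a list with the smallest p (all 20 for FGFR-MAPK output) could be named after their values were seen. The labels' protocols state 3 mice a group, all carrying the same cell line, so p-values measure the spread between mice of 1 experiment. A few genes are not reported here.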

Additional observations from a re-analysis of the deposited data

Results flagged for a closer look

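DESeq2, run on the same filtered genes, gave an interaction at an adjusted p under 0.05 for 13 higher and 5 lower genes, where edgeR gave 0 and 0. A difference of the lenvatinib effect between tumors with and without H3B-6527 was thus called by 1 of the tools. The higher genes included NPAS2 (adjusted p = 0.00338), NAT8 and HLF (both 0.00807), CASP4 and RBPMS (both 0.015), MYC and JAML (both 0.0209), ATP2B2 (0.0283), C8orf4 (0.0285), AMDHD1 and CREB5 (both 0.0307) and SLCO1B3 (0.0417). Of these, C8orf4 had only 0.18, 0.217 and 0.209 CPM in H3B-6527 tumors, and CREB5 0.334, 0.569 and 1.13 CPM. Their contrasts rest on few counts in that group. The genes called lower included LRP11 (0.000634), CHRNA4 (0.0103), EML6 (0.0307) and ZBED8 (0.0319). SLC6A14, an amino acid transporter (0.0417), was named after its value was seen, and a gene with near-identical copies is not named. With each of the 12 tumors left out in turn, LRP11 was called in 12 of the 12 DESeq2 fits, NPAS2 in 11, NAT8 in 10, CHRNA4 in 8, HLF and RBPMS in 7, CASP4 in 6, MYC and C8orf4 in 5, ATP2B2 and SLC6A14 in 4, JAML, AMDHD1, EML6, CREB5 and SLCO1B3 in 3, and ZBED8 in 2. These tallies cover only genes that the fit to all 12 tumors had called, and each refit reuses all of its tumors but 1. They describe how far a call depends on single tumors and are not independent support. DESeq2 called 0 to 88 higher and 1 to 33 lower genes over these fits, the fewest higher ones without H3B-6527 replicate 2 and the most of either kind without H3B-6527 replicate 3.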

How the results depend on the processing

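No paired analysis was possible because the labels carry no replicate numbers, and the numbers used here only name tumors. Over 20 alternatives (scaling, filters, test, group weights, rounding and each tumor left out), edgeR and limma-voom gave 0 interaction genes in each direction, and DESeq2 gave 13 higher and 5 lower. Leaving out each tumor kept both edgeR counts at 0. The same in DESeq2, chosen after seeing the data, gave 16, 2 and 3 higher and 3, 2 and 4 lower genes without combination replicates 1, 2 and 3, then 15, 0 and 88 higher and 5, 1 and 33 lower without H3B-6527 replicates 1, 2 and 3, then 4, 45 and 20 higher and 1, 15 and 7 lower without lenvatinib replicates 1, 2 and 3, and 2, 5 and 4 higher and 3, 9 and 2 lower without vehicle replicates 1, 2 and 3. Unadjusted calls ran from 557 without lenvatinib replicate 1 to 1568 without H3B-6527 replicate 3. Lenvatinib on top of H3B-6527 gave 2 genes, and 13 without the filter, 93 in DESeq2, 0 with group weights, and 0 to 16 with a tumor left out. Lenvatinib alone gave 0, and 41 without the filter, 243 in DESeq2, 8 in limma-voom, 263 with group weights, and 0 to 45 with a tumor left out. The cause of these differences was not tested. H3B-6527 gave 4620 to 7451 genes with lenvatinib and 6344 to 8386 alone with a tumor left out, none of the alternatives moving its counts by over 1.5 times.

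Of 165 genes followed, 150 kept their sign in all log2-scale alternatives. Many of them were chosen for a small p or for the same sign over all combinations of tumors. The alternatives also reuse the same counts, so the number is in part fixed by that choice and is no separate support. With a tumor left out, contrasts spanned 0 for FGFR4 (-0.017 to 0.18), FGF19 (-0.035 to 0.78), VEGFA (-0.15 to 0.099), ETV4 (-0.021 to 0.97), HMGA2 (-0.048 to 0.63), IL17RD (-0.36 to 1.02), MKI67 (-0.50 to 0.18), RRM2 (-0.34 to 0.23), CDKN1A (-0.38 to 0.33), CA9 (-0.25 to 2.17), DDIT3 (-0.20 to 0.084), ASNS (-0.15 to 0.11), FASN (-0.10 to 0.14), CPT1A (-0.57 to 0.60) and MET (-0.080 to 0.045). limma-voom, without and with group weights, turned CDKN1A to 0.0275 and 0.0291, ASNS to 0.0129 and 0.014, and CPT1A to 0.0388 and 0.0289, and with weights IL17RD to -0.002. On linear CPM the sign turned for FOS (-3.10), CYP8B1 (0.421), NR0B2 (-0.446), RRM2 (1.16), CA9 (-6.38), ASNS (0.0853), CPT1A (7.97) and ITIH1 (11.8), in CPM. Of the 27 list medians, 14 kept their sign in every alternative, 11 above 0 and 3 below. Depth limits low genes such as SPRY4 and CYP7A1.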
